A study of Mus musculus with 6 samples.

Results

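Cytosolic ribosomal protein genes encode the proteins that, with ribosomal RNA, build the ribosome of the cytoplasm. Members were chosen by symbol alone: Rpl or Rps, a number and at most 1 of the letters a, x and l, together with Rpsa, Rplp0, Rplp1 and Rplp2. The rule found 82 of the 47937 genes in the table, 50 of the large and 32 of the small subunit. GENCODE M21 on GRCm38 classes 80 of them as protein coding, Rps4l as a transcribed processed pseudogene and Rpl6l as a processed pseudogene. The rule leaves out some genes that also give ribosomal proteins, such as Rps3a1, Fau and Rack1, and rows named as pseudogenes.

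The libraries came from haematopoietic stem cells (HSCs), the cells that renew themselves and give rise to all blood lineages. Bone marrow of wild type C57BL/6 mice, 8 weeks old and male per the labels, was depleted of lineage-positive cells and sorted for LSK, CD34-, CD48-, Flt3- and Slam1+ cells. CD93, a surface receptor of early haematopoietic and endothelial cells, then divided them into CD93+ HSCs (3 libraries) and CD93- HSCs (3 libraries), and polyA RNA was sequenced with a low input kit. The comparison addresses how the transcripts of the CD93+ fraction differ from those of the CD93- fraction, and no treatment or engineered allele is named for either. The labels give 3 biological replicates a group but do not tie them to animals, so p-values measure the spread between these libraries.

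Ribosomes hold most of these proteins in equal amounts, and protein made in excess of its partners is degraded. Most of their messenger RNAs begin with a run of pyrimidines at the cap, through which mTOR signalling sets how strongly they are translated. HSCs are known for a low rate of protein synthesis compared with their progeny, and haploinsufficiency for several of these genes causes Diamond-Blackfan anaemia in humans.

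Reads assigned to genes numbered 9509304, 5794528 and 7152750 in CD93+ HSC replicates 1, 2 and 3, and 2832653, 4614396 and 3003095 in CD93- HSC replicates 1, 2 and 3. Of 11805 tested genes, 2.10% to 13.5% had no read in the CD93+ libraries, against 71.0%, 26.4% and 16.0% in CD93- replicates 1, 2 and 3, so CD93- replicate 1 stands apart. Cd93 itself had 906, 1001 and 550 reads in CD93+ HSCs and 0, 419 and 38 reads in CD93- HSCs, and per assigned read CD93- replicate 2 lay within the range of the CD93+ libraries. All 10 HSC markers listed were read in each CD93+ library, and in CD93- HSCs 4, 10 and 10 of them were read. Summed per assigned read, however, these markers were higher in every CD93- library than in any CD93+ library. The label male was not matched by every library: Y-linked genes were read in all CD93+ libraries, whereas CD93- replicates 2 and 3 had 2419 and 1143 Xist reads and no read of 4 Y-linked genes. CD93- replicate 1 had 1 read of these genes in all, so that sex and CD93 group cannot be told apart in any comparison that follows.

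A start of the kind known as terminal oligopyrimidine was looked for in the RefSeq promoters of GRCm38.p6, which hold 60 of the 82 members with 72 annotated starts. The letters searched were a C at the start followed by at least 4 bases that are each C or T, on the strand of the gene. They stood at 13 member starts (18.1%), against 823 of 32851 starts in the whole table (2.51%). Within 25 bases after the start they were found for 45 of the 72 member starts (62.5%), against 33.8% of all starts. A match describes these letters in this window and is not a measured start of transcription. The windows shown run from 30 bases before the annotated start to 30 bases from it on, 5′ to 3′ on the gene's strand, with the run at the start in capitals. Rpl15 (chr14:18270957-18271016, minus strand) has the longest run, of 13 bases. Rpl35 (chr2:39005102-39005161, minus), Rps10 (chr17:27635215-27635274, minus), Rps18 (chr17:33955636-33955695, minus), Rpl28 (chr7:4792935-4792994, plus) and Rps27 (chr3:90213619-90213678, minus) are shown because they are described again for their reads in CD93- libraries. The stalk gene Rplp2 (chr7:141447621-141447680, plus) has a run of 5 bases, and the most read member, Rpl4 (chr9:64173357-64173416, plus), has none at its annotated start.
Rpl15: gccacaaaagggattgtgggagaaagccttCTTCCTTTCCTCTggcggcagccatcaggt
Rpl35: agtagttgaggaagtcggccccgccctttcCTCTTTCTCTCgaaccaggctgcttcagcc
Rps10: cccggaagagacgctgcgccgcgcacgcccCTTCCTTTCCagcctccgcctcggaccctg
Rps18: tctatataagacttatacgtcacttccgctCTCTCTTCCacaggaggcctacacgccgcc
Rpl28: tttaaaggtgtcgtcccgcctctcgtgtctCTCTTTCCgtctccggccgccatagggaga
Rps27: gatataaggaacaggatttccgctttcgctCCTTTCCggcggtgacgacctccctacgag
Rplp2: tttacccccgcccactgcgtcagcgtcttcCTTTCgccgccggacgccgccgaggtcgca
Rpl4: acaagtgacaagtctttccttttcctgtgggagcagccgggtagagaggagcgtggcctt

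The ribosomal protein genes together took 26951, 23058 and 30805 reads per 1000000 assigned reads (CPM) in CD93+ replicates 1, 2 and 3, and 13761, 42600 and 34631 CPM in CD93- replicates 1, 2 and 3. The CD93+ libraries lay between CD93- replicate 1, the lowest of all, and CD93- replicates 2 and 3, the highest, so the groups overlapped. Means were 26938 ± 3874 CPM in CD93+ HSCs and 30331 ± 14892 CPM in CD93- HSCs (SD, n = 3 each), a ratio of 0.888. Without CD93- replicate 1 the ratio was 0.698. Leaving out CD93- replicate 2 instead turned the direction, to a log2 ratio of 0.15. These sums were 2.31% to 3.08% of the assigned reads in CD93+ HSCs and 1.38% to 4.26% in CD93- HSCs, with 95% Wilson intervals at most 0.0414 percentage points wide, which cover counting error only. A lower share in bulk RNA cannot tell fewer cells of a type from less RNA per cell.

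The 10 HSC markers listed summed to 2175, 2082 and 1594 CPM in CD93+ HSCs and 3187, 3891 and 2352 CPM in CD93- HSCs, without overlap. In CD93- replicate 1 the sum came from 4 genes, and 1 of the 10 genes had this order by itself. Markers of other cell types differed between the same libraries. Neutrophil markers were read for 9, 1 and 4 of 10 genes in CD93+ HSCs, with 2.93 to 275 CPM in sum, and for 0, 10 and 10 of 10 genes in CD93- HSCs, with 0, 12457 and 8682 CPM. B lineage markers were read for 3, 2 and 3 of 8 genes in CD93+ HSCs, with 73.0 to 97.6 CPM, and for 1, 7 and 8 genes in CD93- HSCs, with 0.353, 11111 and 34016 CPM. Ly6g, Cd79a, Ms4a1 and Pax5 were at 0 in every CD93+ library and in CD93- replicate 1. Mast cell and basophil markers ran the other way, with 6 of 6 genes read and 94.7 to 1057 CPM in CD93+ HSCs, and 0, 27.5 and 0 CPM in CD93- HSCs. Erythroid markers were read for 6, 7 and 7 of 7 genes in CD93+ HSCs, with 312, 288 and 585 CPM, and for 1, 5 and 4 genes in CD93- HSCs, with 228, 15.4 and 16.3 CPM, where Klf1 was at 0 in all 3 libraries. Reads of the listed neutrophil and B lineage marker genes and of immunoglobulin genes were then left out of the totals. The member sums were 26960, 23061 and 30809 CPM in CD93+ HSCs and 13761, 43790 and 36559 CPM in CD93- HSCs, close to the values above. Reads of all other genes stayed in the totals, so this does not remove what such cells may have given. Whether any of these other cell types gave part of the member reads themselves was not tested.

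**Figure D1:**
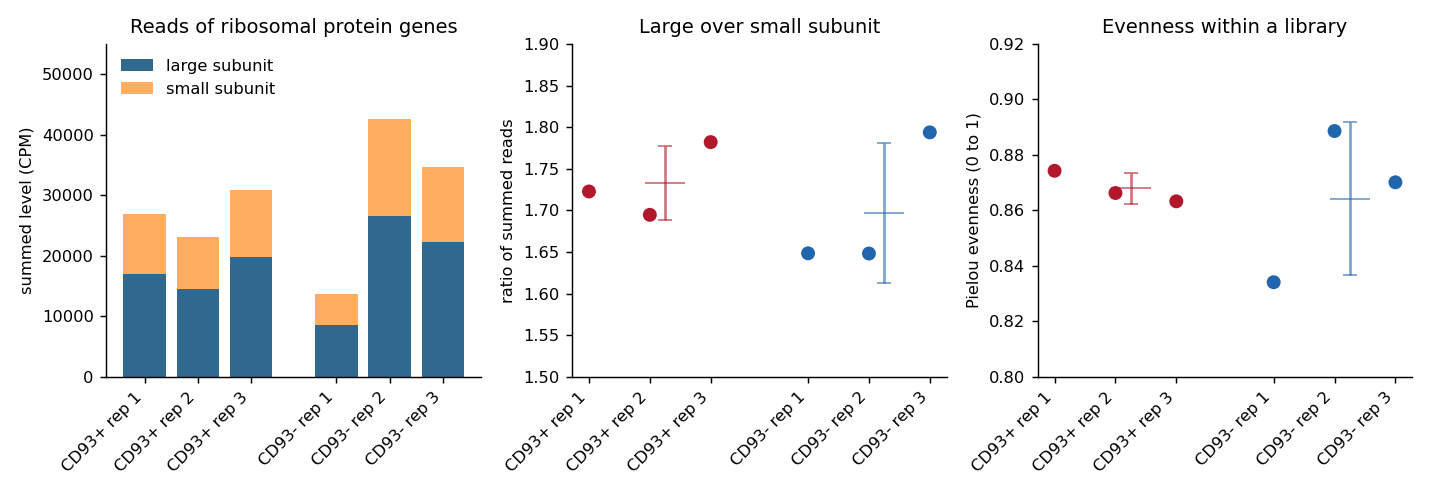
Bars (left) give the summed level of large and small subunit genes as CPM, and points give the ratio of large to small subunit reads (middle) and the Pielou evenness of member reads (right) in each of 3 CD93+ and 3 CD93- libraries; lines are the mean and SD, and the middle and right axes do not start at 0. The summed level spans 13761 to 42600 CPM among CD93- libraries, while the ratio stays between 1.65 and 1.79 in all 6.

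The balance between subunits varied far less than the sum. Large subunit genes had 17053, 14502 and 19733 CPM in CD93+ HSCs and 8565, 26514 and 22235 CPM in CD93- HSCs. Small subunit genes had 9898, 8557 and 11073 CPM in CD93+ HSCs and 5196, 16086 and 12396 CPM in CD93- HSCs. Their ratio was 1.72, 1.69 and 1.78 in CD93+ replicates 1, 2 and 3, and 1.65, 1.65 and 1.79 in CD93- replicates 1, 2 and 3. The means, 1.73 ± 0.0446 in CD93+ HSCs and 1.70 ± 0.0840 in CD93- HSCs (SD, n = 3 each), differed by less than 1 SD of either group, and the ranges overlapped. CD93- replicate 1, with the lowest sum, had a ratio equal at this precision to that of CD93- replicate 2, with the highest. This match was not kept without the member with most reads in each subunit. The log2 ratio was then 0.66, 0.59 and 0.69 in CD93+ HSCs and 0.50, 0.63 and 0.75 in CD93- HSCs, with CD93- replicate 1 the lowest.

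Evenness was described by the Pielou index, the Shannon entropy of the shares of member reads over its maximum, which is 1 when all members have equal shares. It was 0.874, 0.866 and 0.863 in CD93+ replicates 1, 2 and 3, and 0.834, 0.889 and 0.870 in CD93- replicates 1, 2 and 3. The lowest and the highest value were both in CD93- HSCs, around means of 0.868 ± 0.00569 in CD93+ HSCs and 0.864 ± 0.0277 in CD93- HSCs (SD, n = 3 each). With reads per kb of transcript in place of reads, the index was 0.903, 0.897 and 0.897 in CD93+ HSCs and 0.860, 0.899 and 0.895 in CD93- HSCs, and CD93- replicate 1 was again the lowest. Rpl4, a protein that lines the tunnel through which the new peptide leaves, took most reads in every library. Its share of member reads was 11.2%, 12.7% and 12.1% in CD93+ HSCs and 12.9%, 8.66% and 9.86% in CD93- HSCs, with 95% Wilson intervals at most 0.666 percentage points wide. The 10 members with most reads held 43.8% ± 0.494 of them in CD93+ HSCs and 44.3% ± 2.56 in CD93- HSCs (SD, n = 3 each).

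The make-up of the member reads was compared between each pair of libraries as the SD, over members read in both, of the log2 ratio of their shares. Between CD93+ libraries this SD was 0.23 to 0.31, and between CD93- replicates 2 and 3 it was 0.43. Between the groups it was 0.35 to 0.49 without CD93- replicate 1, which spans the value within CD93- HSCs. With CD93- replicate 1 in the pair, it was 1.17 to 1.32, whichever group the other library came from. The median SD that counting alone gives was 0.049 to 0.094, below each of these values. Spearman correlations of the shares across the 80 tested members, which share library and depth, were 0.984 to 0.991 within CD93+ HSCs, 0.955 to 0.982 between groups, and 0.762 to 0.813 where CD93- replicate 1 was in the pair.

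**Figure D2:**
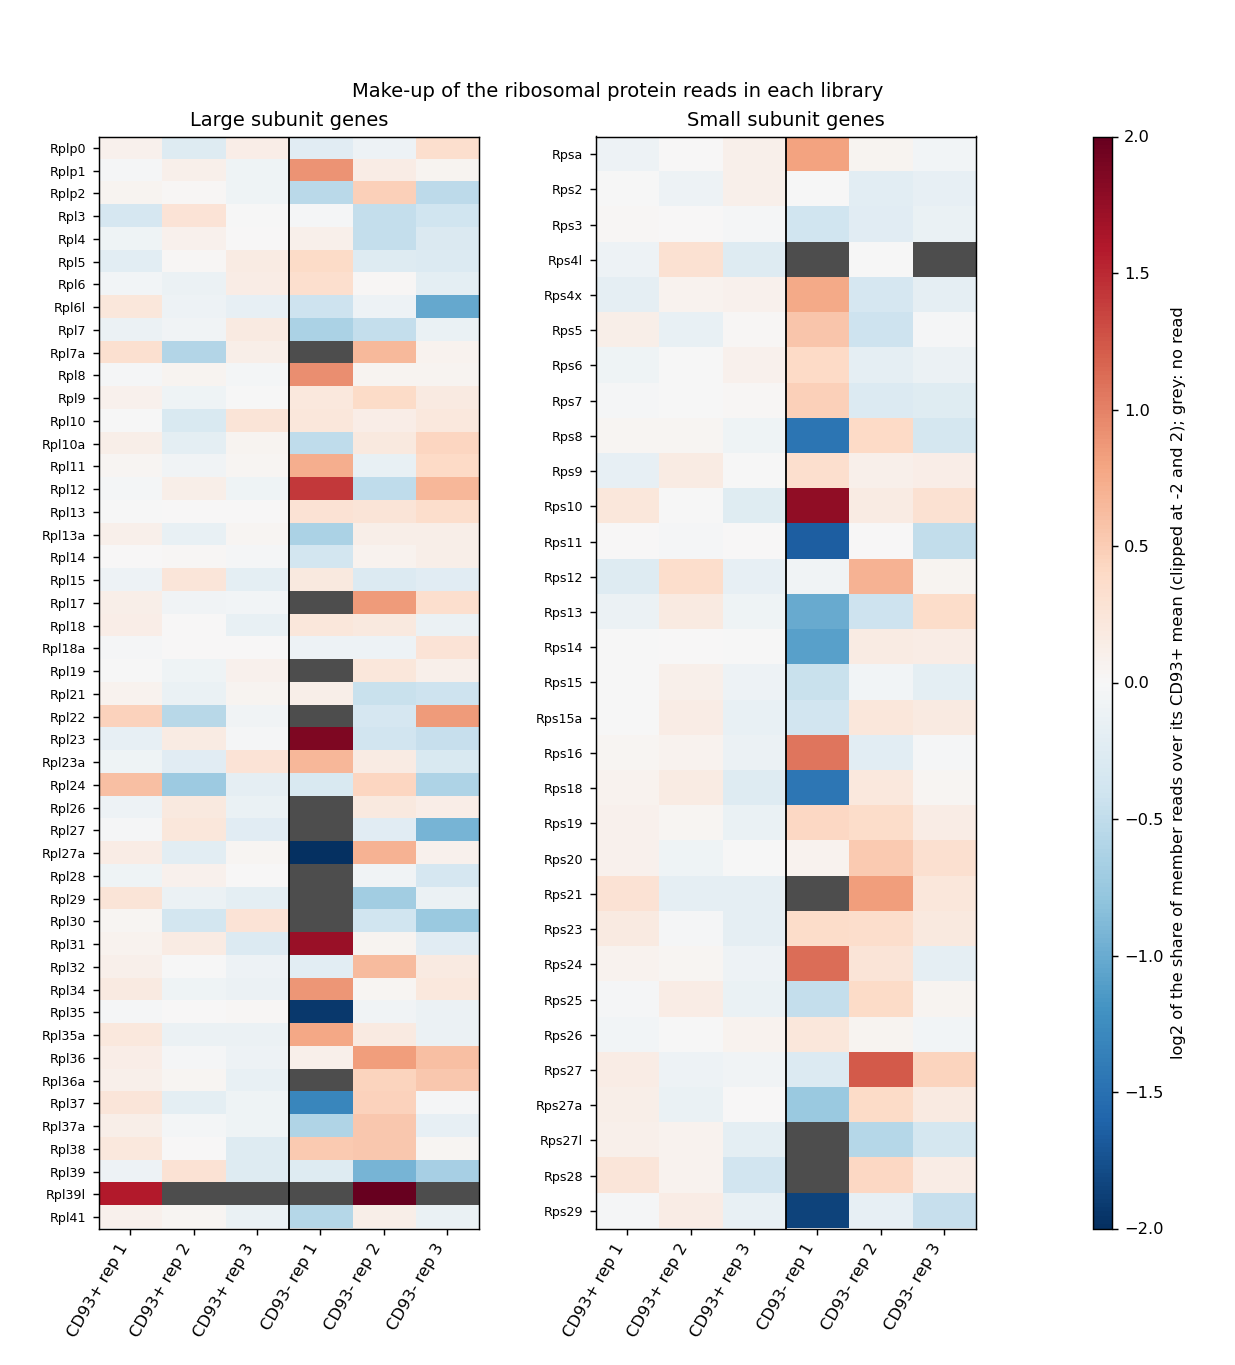
Colours give the log2 ratio of the share of member reads of 79 tested members in a library (columns, CD93+ left of the black line) to their mean share in the CD93+ libraries, for large (left) and small (right) subunit genes; grey marks a member with no read. CD93- replicate 1 holds 15 grey cells and most of the strong colours, while CD93- replicates 2 and 3 hold 0 and 2 grey cells.

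CD93- replicate 1 departed most. Of its 65 members read, 16 deviated more than 2-fold from their mean share in CD93+ HSCs, 7 above and 9 below. Rpl27a was lowest, with a log2 deviation of -6.72 from 1 read, followed by Rpl35 at -1.92, a protein at the rim of the exit tunnel, and Rps29 at -1.85, a protein of the small subunit head. Rpl23 was highest, at 1.87, a protein known to bind the p53 inhibitor Mdm2, then Rps10 at 1.77 and Rpl31 at 1.72. In CD93- replicate 2, Rps27 lay 1.22 above its CD93+ mean and Rpl39l 4.46 above. In CD93- replicate 3 the one deviation beyond 2-fold was that of Rpl6l, at -1.02.

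Read in the CD93+ libraries were 80, 79 and 79 of the 80 tested members, and in CD93- libraries 65, 80 and 78 of them. The counts were the same after thinning each library to 2832653 reads. The 15 members with no read in CD93- replicate 1 were 11 of the large subunit (Rpl7a, Rpl17, Rpl19, Rpl22, Rpl26, Rpl27, Rpl28, Rpl29, Rpl30, Rpl36a and Rpl39l) and 4 of the small (Rps21, Rps28, Rps4l and Rps27l). Together they held 5.62% of member reads in CD93+ HSCs, and at those shares 2191 reads would have fallen on them in CD93- replicate 1. Rpl7a had 2630, 737 and 1971 reads in CD93+ HSCs and 0, 2535 and 904 in CD93- HSCs, where 321 would have been its part in replicate 1. Rpl19, at the exit tunnel, had 2093, 1040 and 1925 reads in CD93+ HSCs and 0, 1895 and 916 in CD93- HSCs. Rpl26, another protein of the tunnel rim, had 1615, 1036 and 1356 reads in CD93+ HSCs and 0, 1522 and 768 in CD93- HSCs. For these 3 genes the zero was that of 1 library, and the other 5 had at least 737 reads. The unread members had a median transcript of 614 bases and 93.2 CPM in CD93+ HSCs, against 802 bases and 221 CPM for those read. Of the 59 members with at least 100 CPM in CD93+ HSCs, 7 (11.9%) had no read in CD93- replicate 1, against 50.1% of all 2730 genes at that level. At 300 CPM or more it was 0 of 27 members and 25.9% of 580 genes.

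Levels can be set beside each other between genes only per length, and the next values are CPM per kb of transcript (RPKM). The median tested member had 276, 212 and 285 RPKM in CD93+ HSCs and 140, 503 and 371 RPKM in CD93- HSCs. Rpl32, Rpl4 and Rpl13 were highest among large subunit genes, with 1849, 1464 and 1820 RPKM for Rpl32 in CD93+ HSCs and 754, 4191 and 2496 RPKM in CD93- HSCs. Rpl4 had 1971, 1900 and 2418 RPKM in CD93+ HSCs and 1158, 2398 and 2220 RPKM in CD93- HSCs, and led in all libraries but CD93- replicates 2 and 3, where Rpl32 did. Rpl13 had 1117, 962 and 1283 RPKM in CD93+ HSCs and 697, 2120 and 1847 RPKM in CD93- HSCs. All 3 were lowest in CD93- replicate 1.

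Rps14, Rps9 and Rps18 were highest among small subunit genes. Rps14, a protein of the small subunit platform whose loss on human chromosome arm 5q is tied to a myelodysplastic syndrome with anaemia, had 1232, 1075 and 1419 RPKM in CD93+ HSCs and 298, 2193 and 1778 RPKM in CD93- HSCs. Rps9, near the path of the messenger RNA, had 933, 998 and 1185 RPKM in CD93+ HSCs and 675, 1769 and 1477 RPKM in CD93- HSCs. Rps18, in the head of the small subunit, had 1070, 978 and 977 RPKM in CD93+ HSCs and 191, 1869 and 1356 RPKM in CD93- HSCs. For each of the 3, both CD93- replicates 2 and 3 lay above all CD93+ libraries and CD93- replicate 1 below them. At the other end were Rpl24, Rpl6l and Rpl39l of the large and Rps20, Rps15a and Rps4l of the small subunit. The transcript models of Rps15a and Rps20 measure 5130 and 3706 bases, and their low values rest on these lengths. Rpl24 had 13.4, 4.59 and 8.88 RPKM in CD93+ HSCs and 3.65, 18.9 and 7.38 RPKM in CD93- HSCs.

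**Figure D3:**
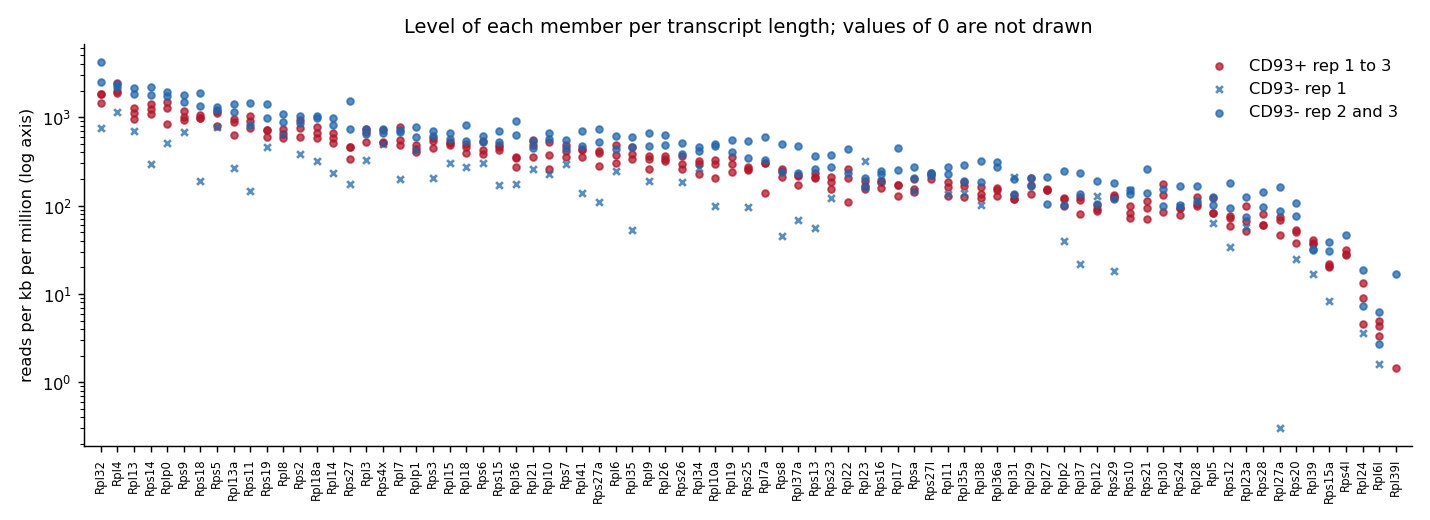
Points give the level of 79 of the 80 tested members in RPKM on a log axis, ordered by the mean over 6 libraries, for CD93+ (red), CD93- replicate 1 (blue crosses) and CD93- replicates 2 and 3 (blue points); zeros are not drawn. The mean level runs from 2096 RPKM for Rpl32 to 3.02 RPKM for Rpl39l, and most crosses lie under the red points.

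Several members exist beside a copy with a narrower pattern. Rpl3l, a muscle copy of Rpl3, and Rpl10l, a testis copy of Rpl10, had no read in any library, which allows 0.315 to 1.06 CPM each (3 reads of a library's total). Their partners were well read: Rpl3, which contacts the peptidyl transferase centre, had 6686, 5311 and 7144 reads in CD93+ HSCs and 1254, 4646 and 2591 in CD93- HSCs. Rpl10, which joins the large subunit late in its assembly, had 2871, 1216 and 2971 reads in CD93+ HSCs and 515, 2426 and 1353 in CD93- HSCs. Rpl39l, known from testis, had 11, 0 and 0 reads in CD93+ HSCs and 0, 62 and 0 in CD93- HSCs, so nearly all came from CD93- replicate 2. Its partner Rpl39, in the exit tunnel, had 22.3, 25.02 and 22.9 CPM in CD93+ HSCs and 10.2, 19.7 and 19.3 CPM in CD93- HSCs, and every CD93+ library lay above every CD93- library.

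Rps27 and its copy Rps27l, a target of p53, differed in how the libraries ordered. Rps27 had 465, 333 and 455 RPKM in CD93+ HSCs and 177, 1537 and 727 RPKM in CD93- HSCs, with CD93- replicates 2 and 3 above all CD93+ libraries. Rps27l had 236, 199 and 221 RPKM in CD93+ HSCs and 0, 234 and 223 RPKM in CD93- HSCs, with CD93- replicates 2 and 3 inside the CD93+ range. Rps4l, a processed copy, had 206, 142 and 159 reads in CD93+ HSCs and 0, 169 and 0 in CD93- HSCs. Rps4x, its X-linked parent, had 4762, 2957 and 4951 reads in CD93+ HSCs and 1382, 3288 and 1935 in CD93- HSCs, more than any value of the copy. How reads that fit both a gene and its copy were assigned is not given in the sources used here. Rows named as pseudogenes of members numbered 271, and 207 of them had reads, for 59 members. They summed to 404, 325 and 408 CPM in CD93+ HSCs and 373, 684 and 573 CPM in CD93- HSCs, small beside the member sums.

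No member differed past the threshold between CD93+ and CD93- HSCs: limma with Benjamini-Hochberg adjustment called 0 of the 80 tested members and 0 of all 11805 genes (0%). None had an unadjusted p under 0.05, whereas 0.381% of all genes were lower and 11.8% higher in CD93+ HSCs at that level. edgeR's quasi-likelihood test also called 0 members and 0 genes, and DESeq2 called 0 members and 528 of 10558 genes (5%). The authors' deposited table gives an adjusted p for 79 members, the smallest 0.831, and calls 705 of 11813 genes (5.97%). In the limma fit, the log2 fold change of CD93+ over CD93- was positive for 35 members, against 79.9% of all genes, and negative for 45, against 20.1%. Its median was -0.07 beside 2.36 for all tested genes, and 71 members lay under that gene median. In CD93- replicate 1, 71.0% of tested genes had no read, against 15 of the 80 members. Without that library the member median was -0.62 and the gene median 0.43, with 60.1% of tested genes positive. With all 6 libraries, large and small subunit medians were -0.05 and -0.12. The sign of the member median over the same 6 libraries depended on the scaling. It was 0.16 under TMM, -0.13 under quantile normalization, -0.15 with edgeR and -0.32 with DESeq2. The gene median beside it was 2.52, 0.02, 0.44 and 0.29 in that order, and 71, 48, 74 and 74 members lay under it, so the gap was smallest under quantile normalization.

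Most of the positive values were not kept without CD93- replicate 1. Of the 65 members read in every library, 44 had a negative fold change, with a median of -0.15. Without CD93- replicate 1, 77 of 80 members were negative, against 39.8% of all tested genes, and 3 were positive, against 60.1%. The median was -0.62 beside 0.43 for all genes. At an unadjusted p under 0.05, 25 members were lower in CD93+ HSCs, against 4.4% of all genes, and 0 were higher, against 12.5%. In CD93- replicates 2 and 3, 26.4% and 16.0% of tested genes had no read, against 0 and 2 of the 80 tested members. The shares of members and of all genes are therefore not like for like. None passed the adjustment: 0 members and 1 of 11805 genes (0.00847%) were called by limma, and the smallest adjusted p of a member was 0.109, for Rpl13, at a log2 fold change of -0.86 (SE 0.155). Large and small subunit medians were then -0.63 and -0.58. This fit compares 3 libraries with CD93- replicates 2 and 3, the libraries with neutrophil and B lineage reads, and whether these moved the members was not tested. Leaving out CD93- replicate 2 or 3 or CD93+ replicate 2 made the median positive instead, at 0.24, 0.11 and 0.01.

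**Figure D4:**
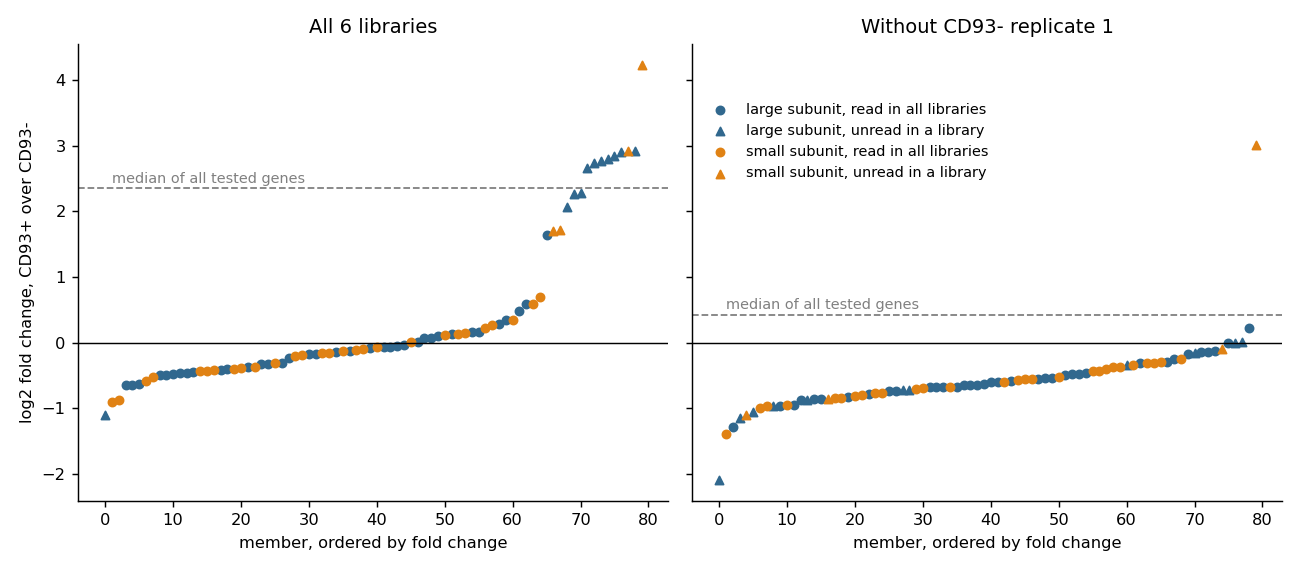
Points are the log2 fold changes (CD93+ over CD93-) of the 80 tested members in order, for all 6 libraries (left) and without CD93- replicate 1 (right), coloured by subunit; triangles mark members unread in at least 1 of the 6 libraries, and the dashed line is the median of all 11805 tested genes. On the left, 35 members are above 0 with a group of triangles near 3, and on the right 77 of 80 are below 0.

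The 6 members with the smallest p among positive fold changes were Rps4l, Rpl27, Rps27l, Rpl29, Rpl30 and Rpl28, all unread in CD93- replicate 1. Rps4l had 94.2, 113 and 97.8 normalized counts in CD93+ HSCs and 0, 161 and 0 in CD93- HSCs. On the log2 scale the fold change was 4.23 (SE 2.19, adjusted p = 0.466 by limma), and CD93- replicate 2 lay above every CD93+ library. It was 1.28 under quantile normalization, 1.02 with edgeR and 0.88 with DESeq2, and ran over 3.01 to 6.68 with 1 library left out, the highest without CD93- replicate 2 (adjusted p = 0.078 by limma). Rpl27, one of the Diamond-Blackfan genes, had 404, 434 and 406 normalized counts in CD93+ HSCs and 0, 562 and 300 in CD93- HSCs. Its fold change of 2.91 on the log2 scale (SE 2.69, adjusted p = 0.625 by limma) was 0.01 without CD93- replicate 1. Rps27l, Rpl29, Rpl30 and Rpl28 had fold changes of 2.77 to 2.91 with SEs of 2.65 to 2.75, and each turned negative without that library.

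Among the 6 members with the smallest p and a negative fold change were Rpl8, Rpl13, Rps19, Rps9 and Rplp1, each read in every library. Rpl8, near the peptidyl transferase centre, had 2398, 2288 and 2729 normalized counts in CD93+ HSCs and 2808, 4019 and 3487 in CD93- HSCs. By normalized count all 3 CD93+ libraries lay below all 3 CD93- libraries, but by CPM the groups overlapped. The order by normalized count was found for 1.92% of tested genes and cannot occur for the 71.0% unread in CD93- replicate 1. The normalized counts of Rpl8 gave a log2 difference of -0.46 (SE 0.271, with an adjusted p of 0.511 by limma). Rpl13 had 3787, 3445 and 4405 normalized counts in CD93+ HSCs and 2797, 7258 and 6763 in CD93- HSCs, at -0.42 (SE 0.354, limma adjusted p = 0.623). Rps19, the gene most often mutated in Diamond-Blackfan anaemia, had 2437, 2136 and 2421 normalized counts in CD93+ HSCs and 1855, 4740 and 3538 in CD93- HSCs. On the log2 scale the difference was -0.43 (SE 0.387, adjusted p = 0.623 by limma), and as for Rpl13 and Rps9 CD93- replicate 1 lay below the CD93+ libraries. Rps9 and Rplp1 had fold changes of -0.32 and -0.48 with limma adjusted p of 0.635 and 0.682, and by normalized count, but not by CPM, the groups did not overlap for Rplp1.

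By CPM, 6 members, among them Rpl12, Rpl31, Rps10, Rps16 and Rps24, were lower in every CD93+ than in every CD93- library, an order found for 1.74% of tested genes. A gene with no read in CD93- replicate 1 cannot have this order. In that library 65 of the 80 tested members were read, against 3429 of the 11805 tested genes, so the 2 shares are not like for like. The members named here also lay far above their mean CD93+ share in CD93- replicate 1, by a log2 deviation of 1.06 (Rps16) to 1.77 (Rps10). Rps10 had 88.1, 64.0 and 72.8 CPM in CD93+ HSCs and 132, 133 and 120 CPM in CD93- HSCs. Rps24 had 150, 126 and 152 CPM in CD93+ HSCs and 159, 270 and 163 CPM in CD93- HSCs, a narrower gap. Rpl39 was the member with the opposite order, which 18.8% of tested genes had. Set against CD93- replicates 2 and 3 alone, 53 of 80 members were lower in all CD93+ libraries, against 13.2% of tested genes, and 1 was higher, against 22.4%. These shares are not like for like either, since a gene unread in replicate 2 or 3 cannot be lower in CD93+ HSCs. Of tested genes 26.4% and 16.0% were unread there, against 0 and 2 members. These orders by CPM have no test of their own.

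Members were also described by their place in the ribosome. The stalk, which recruits translation factors to the ribosome, is built of Rplp0, Rplp1 and Rplp2 on a base that includes Rpl12, and 1 of these 4 genes had a positive and 3 a negative log2 fold change (median -0.31, and -0.64 without CD93- replicate 1). Rplp0 had 1257, 848 and 1493 RPKM in CD93+ HSCs and 517, 1736 and 1922 RPKM in CD93- HSCs. Rplp1 had 440, 409 and 481 RPKM in CD93+ HSCs and 423, 780 and 593 RPKM in CD93- HSCs, and Rplp2 had 117, 98.6 and 122 RPKM in CD93+ HSCs and 39.6, 249 and 101 RPKM in CD93- HSCs. Rplp0 was the highest and Rplp2 the lowest of these 3 in every library. Rpl5 and Rpl11, which form a particle with 5S RNA that can bind Mdm2 and so stabilise p53, had 82.0, 82.4 and 121 RPKM (Rpl5) in CD93+ HSCs and 62.8, 125 and 101 RPKM in CD93- HSCs. Rpl11 had 163, 129 and 186 RPKM in CD93+ HSCs and 134, 226 and 270 RPKM in CD93- HSCs, above Rpl5 in each library. Their log2 fold changes were -0.07 and -0.44, and neither passed the test.

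Of the 8 genes at the rim of the exit tunnel, 6 had a positive fold change with a median of 1.42, and 4 of the 8 were unread in CD93- replicate 1. Without that library 7 of the 8 were negative, with a median of -0.60. The 7 genes of the small subunit's messenger RNA channel had 4 positive and 3 negative fold changes (median 0.00), and all 7 were negative without CD93- replicate 1 (median -0.55). The 19 Diamond-Blackfan genes had 5 positive and 14 negative fold changes with a median of -0.19. Without CD93- replicate 1, 18 of the 19 were negative, with a median of -0.59, close to the -0.62 of all members. No gene of these lists passed the test by limma in either fit.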

How the data were processed

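PolyA RNA of 6 libraries, 3 of CD93+ and 3 of CD93- HSCs, was grouped by the titles in the labels. Alignment and counting tools named in the submitters' processing notes are STAR and featureCounts (Subread 1.5.0-p1). The notes also name DESeq2 1.26 and give GRCm38 and mm10 as builds. Not given in the sources used here are annotation release, strand setting and the treatment of reads with several positions, so reads of overlapping genes, antisense genes and near-identical copies cannot be told apart. The authors deposited a signal table, in which gene counts had been divided by each library's size factor. A second table deposited by the authors holds for each gene its mean signal, a log2 fold change with standard error, a Wald score, and the p-value before and after adjustment.

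Values of a library are multiples of what 1 read is worth there, and dividing by it gave whole reads for 100% of non-zero values (tolerance 0.001). The main test was two-sided limma 3.58.1 with a trended eBayes, on normalized counts plus 1 as log2, for the 11805 genes averaging 10 normalized counts or more. P-values were adjusted by Benjamini-Hochberg and called under 0.05. This scale understates low genes and gives large fold changes where a library is at 0. Alternatives on the whole reads used edgeR 4.0.16 and DESeq2 1.42.0 (R 4.3.3), since the deposited values are not counts. CPM, subunit ratio, Pielou evenness and RPKM were computed in Python 3.11.15 (numpy 2.4.6, pandas 2.3.3, scipy 1.17.1, matplotlib 3.10.9) and described without a test. RPKM used the shortest of the best supported principal transcripts of GENCODE M21, whose IDs matched all 82 members and 47310 of 47937 genes without their version.

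Members, gene lists and alternatives were chosen with earlier results of these data known, and a few alternatives after seeing the libraries. Members with a fold change in the text were taken from the 6 of each sign with the smallest p, and some genes are not reported here. Members with reads per library were those unread somewhere, the 3 highest and 3 lowest of each subunit per kb, copies with their partners, the stalk and 5S genes, Rps14 and Rps19. Others named, such as those far from their mean share, were picked after their values were seen. Reads of amplified libraries are not independent molecules, so intervals and limits of 3 reads cover counting error only.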

Additional observations from a re-analysis of the deposited data

How the results depend on the processing

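No ribosomal protein gene was called by limma with pseudocounts of 0.5 and 5, no filter on low values, TMM scaling, quantile normalization or a library left out, nor by edgeR or DESeq2 in their 1 run each. Over all genes limma called 206 at pseudocount 0.5, 774 without CD93+ replicate 2 and 1880 without CD93- replicate 3, of 11805. The group differences in sum, subunit ratio and evenness moved by less than 1 SD between replicates when pseudogenes or the missed genes were added, as did that in evenness per kb or after thinning, though the subunit ratio itself was lower in both groups with the missed genes and evenness higher in both per kb. Leaving out 1 library at a time, the log2 ratio of the summed level ran from -0.52 to 0.15, the log2 difference in subunit ratio from 0.011 to 0.072, the difference in evenness from -0.011 to 0.016 and the median fold change from -0.62 to 0.24, and 0 to 0 members were called. Among the 12 members with the smallest p, 6 of each sign, 4 turned negative without CD93- replicate 1: Rps27l to -0.10, Rpl29 to -0.16, Rpl30 to -0.0013 and Rpl28 to -0.34. They reach 4.42, 4.54, 4.30 and 4.48 without another library, and have no read in CD93- replicate 1. Under quantile normalization Rpl13 (0.051) and Rps9 (0.11) turned positive, and the cause was not tested. Deviations of same-numbered libraries from their group means had r = 0.037, 0.019 and 0.061 across genes. With 3 libraries a group and 71.0% of tested genes unread in CD93- replicate 1, these values cannot show whether the numbers pair libraries. With a replicate block 0 members and 24 genes were called, and the member median was -0.07. Thinned to the depth of CD93- replicate 1, the other libraries read 78 to 80 of 80 members. Thinning draws only on reads already sequenced and does not model the steps before sequencing. What the zeros of CD93- replicate 1 reflect was not tested.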

Other observations

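Genes that share a role or a start with the ribosomal proteins were read beside them. Fau, which the symbol rule leaves out, had 1225, 875 and 1281 reads in CD93+ HSCs and 0, 1388 and 689 in CD93- HSCs, a zero in the same library as the unread members. It did not pass the test by limma (adjusted p = 0.651). Rps3a1, also outside the rule, had 3744, 1980 and 3591 reads in CD93+ HSCs and 250, 2962 and 1746 in CD93- HSCs.

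The 16 other genes known for messenger RNAs with a terminal oligopyrimidine start, mostly translation factors, had 12 positive and 4 negative log2 fold changes with a median of 0.65, and 11 of 16 were negative without CD93- replicate 1, with a median of -0.21. Their summed level was 10894, 11072 and 12903 CPM in CD93+ HSCs and 7399, 12171 and 11316 CPM in CD93- HSCs, so the groups overlapped. Eef2, the factor that moves the ribosome along, had 1049, 1326 and 1465 CPM in CD93+ HSCs and 679, 1019 and 1266 CPM in CD93- HSCs, so the groups overlapped. Its log2 fold change was 0.32 (limma adjusted p = 0.597). Rpl22l1, a copy of Rpl22 outside the rule, had 565, 189 and 408 reads in CD93+ HSCs and 385, 551 and 313 in CD93- HSCs, and was thus read in CD93- replicate 1, where Rpl22 had 0. Per assigned reads Rpl22l1 had 59.4, 32.6 and 57.0 CPM in CD93+ HSCs and 136, 119 and 104 CPM in CD93- HSCs, without overlap. Its log2 fold change was -1.40 (limma adjusted p = 0.63).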
